A study of Homo sapiens with 6 samples.

Results

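The genes described here are 34 transcripts of the cell's antioxidant defence: the NRF2 pathway and its target enzymes, the glutathione and thioredoxin systems, the peroxiredoxins, the superoxide dismutases with catalase, and enzymes of the pentose phosphate pathway and NADPH supply. They were chosen by gene symbol and function from the 17631 genes listed in each library, and all 34 were found. RNA-seq was performed on MDA-MB-231, an established line of human triple-negative breast cancer, in 6 libraries. There were 3 libraries of cells given vehicle and 3 of cells given 30 µM PDBAG1 for 24 h, a synthetic peptide made of a stretch of the enzyme GPD1 joined to a cell-penetrating sequence and directed at C1QBP, a mitochondrial protein. The labels give no genetic change in either group, and both groups were grown in DMEM with fetal bovine serum. The study asked how the peptide affects mitochondrial function and reactive oxygen species in these cells, and the genes below encode the enzymes that remove such species and the factors that control them.

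The limits of the material are those of a single cell line and a single dose and time. Neither the labels nor the methods say that the 3 libraries of a group came from separate cultures, so the p values measure the spread between these libraries, which may be technical. The deposited values are TPM, a share of all transcripts in the library after scaling for transcript length. Read totals cannot be recovered from them, and the depth behind each value is therefore unknown. Between 12392 and 12611 genes per library had at least 1 TPM. The labels name breast cancer tissue beside the cell line. The 5 transcripts that mark this line were all present, and all 5 differed between the groups (limma adjusted p under 0.05). VIM rose from 4270 TPM in vehicle to 5877 TPM with PDBAG1, CD44 from 321 to 484 TPM and MSN from 340 to 465 TPM. CAV1 fell from 575 to 467 TPM and AXL from 384 to 320 TPM. The adipocyte markers were all under 1 TPM, the fibroblast markers summed to 3.91 to 4.05 TPM in vehicle and 4.39 to 5.00 TPM with PDBAG1, nearly all of it COL1A1, with COL1A2 and LUM near 0, and the 7 luminal markers together made 35.4 to 38.6 TPM in vehicle and 34.9 to 39.5 TPM with PDBAG1. The leukocyte markers summed to 258 to 273 TPM in vehicle and 313 to 336 TPM with PDBAG1, nearly all of it CD68, with PTPRC at no more than 1.41 TPM. The endothelial markers summed to 4.11 to 4.40 TPM and to 8.42 to 9.60 TPM, nearly all of it PECAM1, with CDH5 at no more than 0.46 TPM and VWF at no more than 0.09 TPM. COL1A1 was 3.95 TPM in vehicle and 4.64 TPM with PDBAG1, a difference short of the threshold used below (limma adjusted p = 0.121). CD14, a leukocyte marker, was 7.12 and 6.22 TPM (limma adjusted p = 0.143). The part of the changes in the line's own markers, of the higher CD68 and PECAM1 levels, and of the COL1A1 level, in the results below was not tested. In RNA from a whole culture, a change in the share of cells that hold a transcript cannot be told apart from a change in its level per cell.

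As background, NRF2, the product of NFE2L2, is a transcription factor that KEAP1 holds in the cytoplasm and delivers to a CUL3 ubiquitin ligase for degradation. Oxidation of KEAP1 cysteines lets NRF2 accumulate, pair with a small MAF protein and bind antioxidant response elements, which BACH1, a heme-sensitive repressor, occupies in competition with it. Because NRF2 is controlled mainly at the protein level, its transcript is not a measure of its activity. Superoxide is turned into hydrogen peroxide by superoxide dismutases, and peroxide is then removed by catalase, by glutathione peroxidases at the expense of glutathione, or by peroxiredoxins at the expense of thioredoxin. Glutathione reductase and thioredoxin reductase restore both carriers with NADPH, much of which comes from the pentose phosphate pathway and malic enzyme.

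The antioxidant response element is the sequence that joins many of these genes, and it is shown here because NRF2 and BACH1 both act through it. The promoter windows of RefSeq (GRCh38.p14, from 250 bases before to 50 bases after the start) were available for 26 of the 34 genes (not for HMOX1, AKR1B10, GSS, GSR, TXN2, PRDX1, PRDX6 and SOD1) and for 10296 of the genes tested. The core letters TGACNNNGC were searched on both strands. They occurred in 5 of the 26 windows and in 1546 of the 10296, or 15%. The first match of each of the 5 is given 5′ to 3′ on the gene's own strand, with the match in capitals. In PGD, GCLM and AIFM2 the capitals hold the reverse complement of the core.
GCLM: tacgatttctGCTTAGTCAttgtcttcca
ME1: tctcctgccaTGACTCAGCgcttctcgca
TXNRD1: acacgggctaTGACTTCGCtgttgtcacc
PGD: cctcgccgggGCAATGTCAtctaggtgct
AIFM2: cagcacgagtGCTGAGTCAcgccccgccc
The stretch of GCLM lies at chr1:93909446-93909474 on the minus strand and overlaps an annotated exon at the gene's start. That of ME1 lies at chr6:83431170-83431198, minus strand, upstream of the gene. The TXNRD1 stretch is at chr12:104215670-104215698, plus strand, upstream of the gene. In PGD it is at chr1:10398853-10398881, plus strand, inside the annotated gene span and outside any exon, and in AIFM2 at chr10:70132829-70132857, minus strand, over an exon. A match is a run of letters and not a measured binding site. Sequence outside the windows was not searched, so a window without a match does not mean that the gene lacks the element. ME1 was among the genes that rose with PDBAG1, GCLM among those that fell, and AIFM2, TXNRD1 and PGD passed the test in neither direction. On either strand, the core of the hypoxia response element, ACGTG, occurred in 7 of the 26 windows (MAFG, GPX1, PRDX3, PRDX4, GPX4, PRDX2 and PGD) and in 26.8% of all promoters, and the NF-kB consensus in 1 (TXNRD2) and in 12.9%.

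With PDBAG1 the antioxidant genes moved in both directions. SOD2, the mitochondrial superoxide dismutase, rose 2.11-fold, and BACH1, HMOX1 and AKR1C1 rose by 1.38-fold to 1.70-fold, while NQO1, GCLM, GPX1 and PRDX6 fell to between 0.787 and 0.840 of vehicle. NFE2L2 itself was 109 TPM in vehicle and 110 TPM with PDBAG1. A gene was called when its adjusted p in limma, fitted to log2(TPM + 1) over all 12582 genes with at least 1 TPM in 3 or more libraries, was under 0.05. All 34 genes passed that filter, AKR1B10 by only 3 of its 6 values. Folds and log2 changes are on the TPM + 1 scale, which understates the change of genes with low TPM. Of these, 8 were called higher, where 21.7% of all genes tested were higher, and 10 were called lower, where 15.9% of all genes tested were lower. Adjusted p under 0.05 together with a 1.5-fold change was reached by 3 of the 34 (SOD2, AKR1C1 and BACH1), against 3.34% of all genes, and by 2 of the 34, without BACH1, in 6 of the alternatives. The 3 PDBAG1 libraries did not overlap the 3 vehicle libraries for 19 of the 34, which is 55.9%, and for 47.4% of all genes. Under median-of-ratios scaling, an alternative way to set libraries to a common scale, the split was 5 higher and 11 lower. All 18 called genes kept their direction in each of the 14 alternatives run, and 9 of them kept the call as well: SOD2, BACH1, HMOX1, AKR1C1, NQO1, GCLM, GPX1, PRDX3 and PRDX6. Without vehicle replicate 3 or without PDBAG1 replicate 2, 6 genes were higher and 6 lower. The shares of all genes called in these settings are not given, so these splits have no background beside them.

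**Figure D1:**
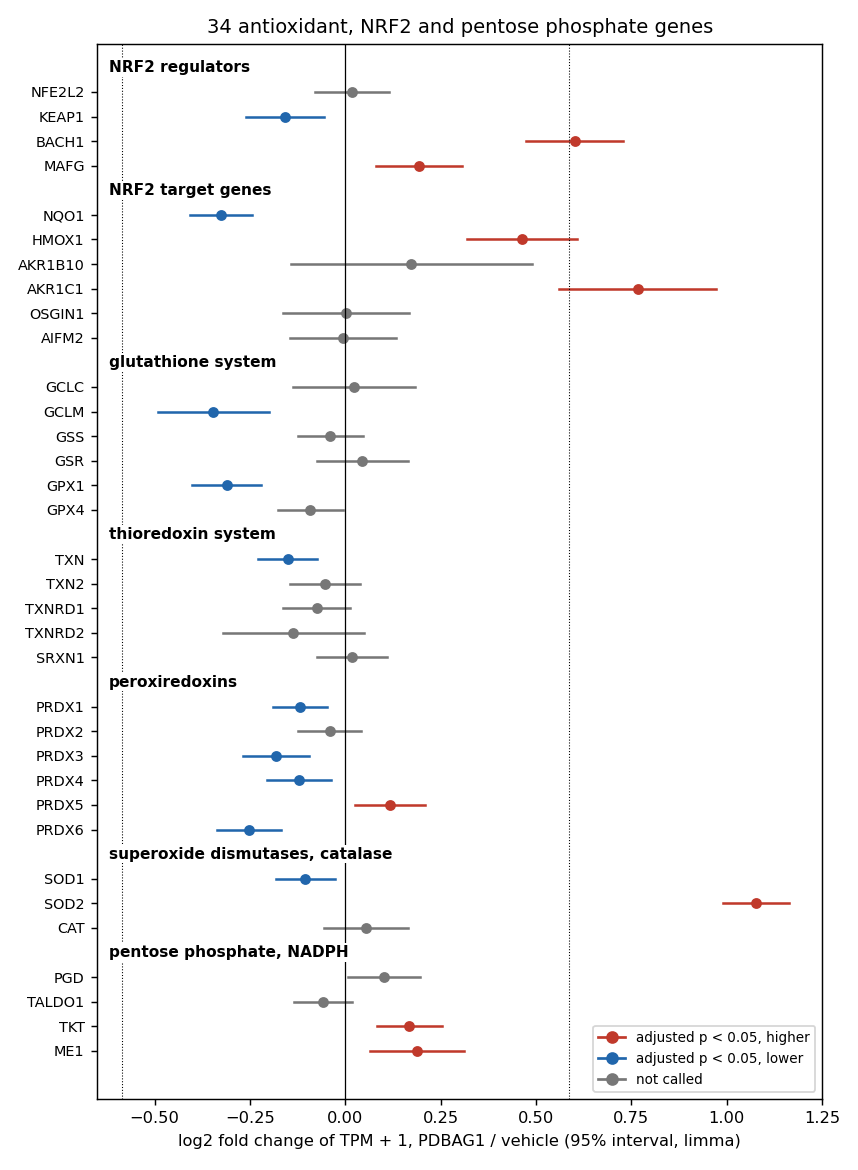
The log2 fold change of TPM + 1 with PDBAG1 over vehicle (x axis) is plotted for the 34 genes by role, with 95% intervals from limma (n = 3 libraries per group). Red marks the 8 genes called higher, blue the 10 called lower and grey the others, and dotted lines mark a 1.5-fold change. SOD2 lies farthest to the right at 1.08, with AKR1C1 at 0.77 and BACH1 at 0.60 next, and no gene lies past the dotted line on the left.

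Among the superoxide dismutases, SOD2 stood at 224, 230 and 212 TPM in the 3 vehicle libraries and at 468, 481 and 459 TPM in the 3 PDBAG1 libraries. Every treated library was above every control, with a gap far wider than the spread within either group. SOD2 converts superoxide in the mitochondrial matrix, and its gene lies on chromosome 6 from 159669069 to 159762529 (GRCh38, GENCODE v44). The group means were 222 ± 9.19 and 469 ± 10.9 TPM (SD over 3 libraries each), which is a log2 change of 1.08 with a 95% interval of 0.99 to 1.16 (limma adjusted p = 4.18e-10). Over the alternatives its log2 fold change ranged from 0.98 to 1.10. By this measure SOD2 ranked 55 among the 12582 genes tested.

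SOD1, the cytosolic copper and zinc enzyme that catalyses the same reaction, went the other way by a small amount. It stood at 363, 371 and 378 TPM in vehicle and at 340, 345 and 350 TPM with PDBAG1, so that the groups were separate. The log2 fold change was -0.10 with a standard error (SE) of 0.0354 (limma adjusted p = 0.0323). That call was lost in 8 of the 14 alternatives, and with trends of fold change on transcript length and GC content removed the log2 fold change was -0.0044. Within a library the TPM of both enzymes can be set against each other. SOD2 made 38.2%, 38.3% and 35.9% of the sum of SOD1 and SOD2 in the vehicle libraries and 57.9%, 58.2% and 56.8% in the PDBAG1 libraries. SOD1 was thus the more abundant transcript in every vehicle library and SOD2 in every PDBAG1 library, a shift of 20.2 percentage points. CAT, the peroxisomal catalase that breaks down hydrogen peroxide, was 72.0 TPM in vehicle and 74.8 TPM with PDBAG1, a log2 difference of 0.05 with an interval of -0.06 to 0.16 (limma adjusted p = 0.433).

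The NRF2 regulators did not move together. NFE2L2, on chromosome 2 from 177218667 to 177392756, stood at 111, 112 and 104 TPM in vehicle and at 109, 108 and 114 TPM with PDBAG1. The groups overlapped, and the 95% interval of the log2 fold change ran from -0.08 to 0.12 (limma adjusted p = 0.782). KEAP1, the adaptor that targets NRF2 for degradation, stood at 64.2, 62.8 and 63.0 TPM in vehicle and at 55.7, 55.5 and 58.8 TPM with PDBAG1. All treated libraries were below all controls, a log2 change of -0.16 with a SE of 0.0473 (limma adjusted p = 0.0175). The adjusted p was 0.0546 without vehicle replicate 3 and 0.0762 without PDBAG1 replicate 2.

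BACH1, the repressor that competes with NRF2 at its elements, showed the largest rise of the 4 regulators. Its gene lies on chromosome 21 from 29194071 to 29630751. Its levels were 26.8, 26.0 and 25.4 TPM in vehicle and 37.5, 41.6 and 41.2 TPM with PDBAG1. The groups were well apart, and the means of 26.1 ± 0.702 and 40.1 ± 2.26 TPM (SD, n = 3 each) differed by a log2 change of 0.60 (SE 0.059, limma adjusted p = 4.27e-06). This is 1.52-fold, close to the limit of 1.5, and BACH1 was short of that limit, with the call itself kept, in 6 alternatives. On the log2 scale its rise was 0.56 under median-of-ratios scaling, 0.56 under quantile normalization, 0.55 with length and GC trends removed, and 0.58, 0.57 and 0.58 without vehicle replicate 3, PDBAG1 replicate 2 and PDBAG1 replicate 3. The ratio of BACH1 to NFE2L2 transcripts was 0.241, 0.233 and 0.244 in vehicle and 0.344, 0.384 and 0.362 with PDBAG1. This ratio was chosen after the data were seen. MAFG, a small MAF protein that partners both NRF2 and BACH1 on DNA, stood at 32.6, 32.2 and 31.5 TPM in vehicle and at 36.8, 36.1 and 37.6 TPM with PDBAG1. It rose in every treated library above every control, by 0.19 on the log2 scale (limma adjusted p = 0.0107). The adjusted p was 0.0538 without vehicle replicate 3, and with length and GC trends removed the log2 fold change of MAFG was 0.04 (adjusted p = 0.37).

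**Figure D2:**
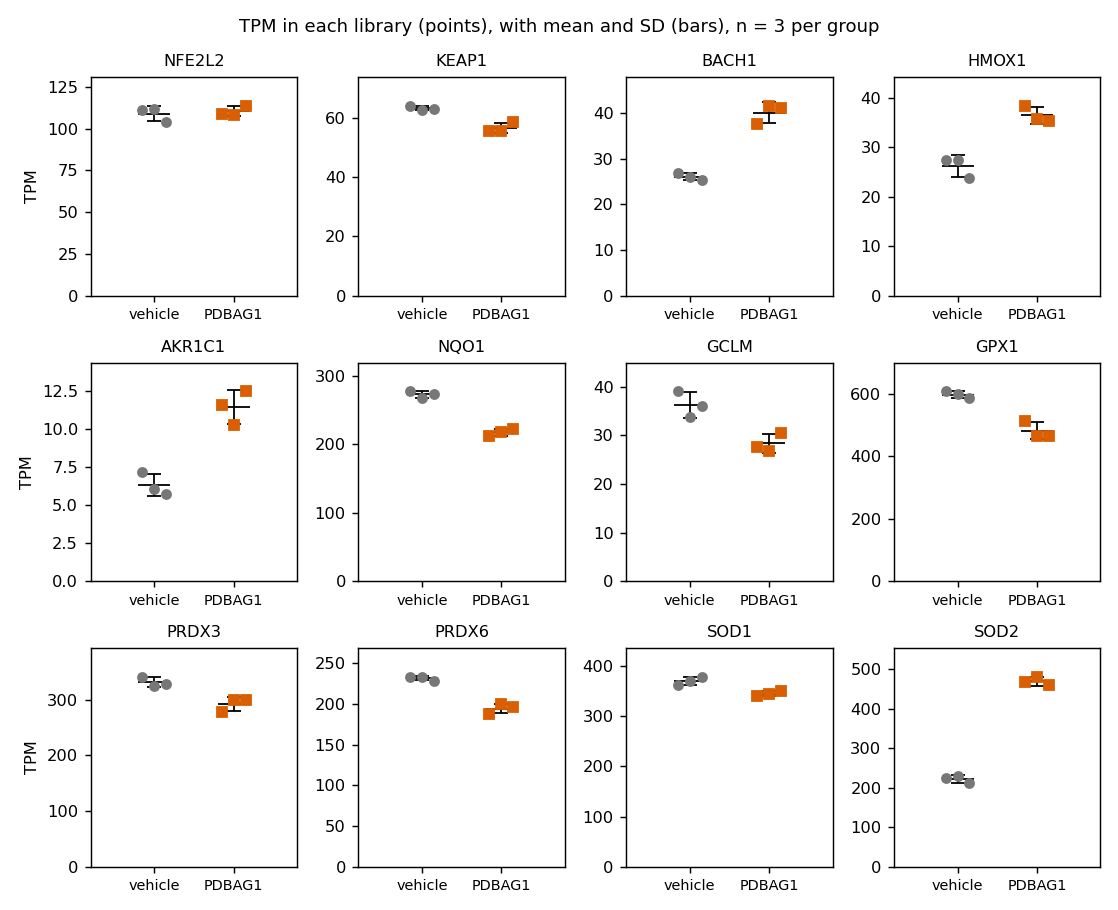
TPM (y axis, each panel from 0) is plotted for 12 of the genes in each of the 3 vehicle libraries (circles) and the 3 PDBAG1 libraries (squares), with bars for the mean and SD. The groups overlap for NFE2L2 and for none of the other 11, and SOD2 has the widest gap, from 230 TPM in the highest vehicle library to 459 TPM in the lowest PDBAG1 library.

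The NRF2 target enzymes divided. HMOX1 and AKR1C1 rose, NQO1 fell, and AKR1B10, OSGIN1 and AIFM2 passed the test in neither direction. HMOX1, or heme oxygenase 1, breaks down heme and is repressed by BACH1 as well as induced by NRF2. It stood at 27.5, 27.5 and 23.7 TPM in vehicle and at 38.4, 35.6 and 35.4 TPM with PDBAG1. Every treated library was above every control, and the log2 fold change was 0.46 (SE 0.0673, 1.38-fold, limma adjusted p = 0.00013). NQO1, a quinone reductase often used as a readout of NRF2, stood at 278, 268 and 273 TPM in vehicle and at 212, 219 and 223 TPM with PDBAG1. It was lower in every treated library, a log2 change of -0.33 (SE 0.0377, limma adjusted p = 1.83e-05). These genes lie on chromosome 22 from 35380361 to 35394214 and on chromosome 16 from 69706996 to 69726668.

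AKR1C1, an aldo-keto reductase of steroids and reactive carbonyls, was much less abundant. It stood at 7.14, 6.06 and 5.73 TPM in vehicle and at 11.6, 10.3 and 12.5 TPM with PDBAG1. The groups did not overlap, and the log2 fold change was 0.77 (SE 0.0958, 1.70-fold, limma adjusted p = 3.68e-05). AKR1C1 is near-identical to its neighbour AKR1C2, so the way reads were shared between them makes its level uncertain. AKR1C2 was 1.6 and 2.24 TPM (limma adjusted p = 0.0544) and AKR1C3 rose from 24.3 to 31.7 TPM (limma adjusted p = 0.0037), both looked at after the value of AKR1C1 was seen. AKR1B10, a reductase of the same superfamily, was at the edge of detection with 1.02 and 1.31 TPM. OSGIN1, an oxidative stress-induced growth inhibitor, was 11.6 and 11.7 TPM (limma adjusted p = 0.983). AIFM2, which reduces coenzyme Q and protects membranes from lipid peroxidation, was 40.3 and 40.1 TPM (limma adjusted p = 0.955). The log2 intervals were -0.16 to 0.17 for OSGIN1 and -0.14 to 0.13 for AIFM2.

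In the glutathione system 2 of the 6 genes fell and none rose, where 15.9% of all genes tested were lower and 21.7% higher. The synthesis of glutathione starts with glutamate-cysteine ligase, whose catalytic and modifier subunits are encoded by GCLC and GCLM. GCLM stood at 39.1, 33.8 and 36.0 TPM in vehicle and at 27.6, 26.9 and 30.5 TPM with PDBAG1. It was lower in every treated library, a log2 change of -0.35 (SE 0.0676, limma adjusted p = 0.00128). Its partner GCLC was 23.1 TPM in vehicle and 23.5 TPM with PDBAG1, with an interval of the log2 fold change from -0.14 to 0.18 (limma adjusted p = 0.835). Glutathione synthetase, GSS, was 166 and 161 TPM, and glutathione reductase, GSR, was 44.1 and 45.5 TPM (limma adjusted p of 0.467 and 0.558), and GSS was past the threshold at -0.08 with those trends of length and GC content removed. GPX1, the peroxidase that uses glutathione to reduce hydrogen peroxide, stood at 609, 599 and 587 TPM in vehicle and at 515, 467 and 467 TPM with PDBAG1. Its treated libraries were all below its controls, and it fell by 0.31 on the log2 scale (SE 0.042, limma adjusted p = 7.12e-05). GPX4, which reduces lipid hydroperoxides in membranes, was 999 TPM in vehicle and 938 TPM with PDBAG1, a log2 difference of -0.09 (limma adjusted p = 0.0861). GPX4 was past the threshold at -0.13 without PDBAG1 replicate 1, at -0.11 under quantile normalization and at -0.13 once length and GC trends were taken out.

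The thioredoxin system held 1 called gene of 5, and that one fell, where 15.9% of all genes tested were lower and 21.7% higher. TXN, the cytosolic thioredoxin, was the most abundant of the 34 transcripts. It stood at 1226, 1324 and 1285 TPM in vehicle and at 1121, 1166 and 1164 TPM with PDBAG1. All treated libraries were below all controls, by 0.15 on the log2 scale (log2 fold change -0.15, SE 0.0362, limma adjusted p = 0.00503), and with length and GC trends removed the value for TXN was -0.03 (adjusted p = 0.446). TXNRD1, the reductase that recharges it, was 381 and 362 TPM (log2 difference -0.08, limma adjusted p = 0.168). Median-of-ratios scaling put it past the threshold at -0.12, and so did the removal of length and GC trends, at -0.10. The mitochondrial pair, TXN2 and its reductase TXNRD2, was 124 and 119 TPM and 18.8 and 17.0 TPM (limma adjusted p of 0.363 and 0.237). TXNRD2 was past the threshold at -0.23 with length and GC trends removed. SRXN1, the sulfiredoxin that repairs over-oxidised peroxiredoxins, was 91.1 and 92.2 TPM, with a log2 interval of -0.07 to 0.11 (limma adjusted p = 0.769).

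Among the 6 peroxiredoxins, which reduce peroxides with electrons from thioredoxin or, for PRDX6, from glutathione, 4 fell and 1 rose. Over all genes tested, 15.9% were lower and 21.7% higher. All 6 peroxiredoxins had a vehicle mean of at least 100 TPM, a level at which 37.8% of genes tested were lower and 17.6% higher. PRDX6 stood at 233, 233 and 229 TPM in vehicle and at 188, 199 and 196 TPM with PDBAG1. The mitochondrial PRDX3 stood at 341, 325 and 329 TPM in vehicle and at 278, 299 and 300 TPM with PDBAG1. Both were lower in every treated library, PRDX6 by a log2 change of -0.25 (SE 0.0388, limma adjusted p = 0.000206) and PRDX3 by one of -0.18 (SE 0.0406, limma adjusted p = 0.00323). PRDX4, the peroxiredoxin of the endoplasmic reticulum, stood at 174, 180 and 173 TPM in vehicle and at 164, 159 and 161 TPM with PDBAG1. It too was separate between groups, at a log2 change of -0.12 (limma adjusted p = 0.0261), and lost the call in 6 alternatives. The cytosolic PRDX1 was 873 ± 6.99 TPM (SD, n = 3) in vehicle and 804 ± 19.4 TPM (SD, n = 3) with PDBAG1 (log2 fold change -0.12, limma adjusted p = 0.0114), and lost the call in 4. With length and GC trends removed, the log2 fold change was -0.07 for PRDX4 (limma adjusted p = 0.0949) and -0.03 for PRDX1 (limma adjusted p = 0.332). PRDX3 and PRDX6 kept the call in that setting, at -0.11 and -0.19. PRDX5, found in mitochondria, peroxisomes and cytosol, was the exception in direction. It was 394 ± 18.2 TPM in vehicle and 427 ± 16.0 TPM with PDBAG1, with overlapping groups (log2 fold change 0.12, limma adjusted p = 0.044), and lost the call in 8 alternatives. PRDX2, the other cytosolic form, was 389 and 378 TPM (limma adjusted p = 0.429).

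Of PRDX1, PRDX4, PRDX5, SOD1 and ME1, each was short of the threshold without vehicle replicate 3 or without PDBAG1 replicate 2. The adjusted p for PRDX1 was 0.0531 and 0.0637 in these settings, for PRDX4 0.0558 and 0.0988, for SOD1 0.144 and 0.0833 and for ME1 0.0543 and 0.0908. For PRDX5 it was 0.0802 without PDBAG1 replicate 2, 0.143 and 0.127 without vehicle replicates 1 and 2, and 0.131 without PDBAG1 replicate 1. Without vehicle replicate 2 it was 0.116 for PRDX4, 0.0859 for SOD1 and 0.0728 for ME1, and without PDBAG1 replicate 1 it was 0.0757 for SOD1.

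The mitochondrial members TXN2, TXNRD2 and PRDX3 made 11.5%, 10.7% and 11% of the summed TPM of all thioredoxin and peroxiredoxin members in vehicle and 10.4%, 10.9% and 10.9% with PDBAG1. These shares overlapped, in contrast to the share of SOD2 among the dismutases. The ratio of TXNRD1 to TXN was 0.298 ± 0.0206 in vehicle and 0.314 ± 0.00727 with PDBAG1 (SD, n = 3).

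In the pentose phosphate and NADPH group 2 of the 4 genes rose and none fell. Of all genes tested, 21.7% were higher and 15.9% lower. TKT, the transketolase of the non-oxidative branch, stood at 384, 399 and 372 TPM in vehicle and at 441, 441 and 415 TPM with PDBAG1. ME1, the cytosolic malic enzyme that makes NADPH, stood at 28.9, 27.9 and 28.7 TPM in vehicle and at 33.2, 33.7 and 31.0 TPM with PDBAG1. Both were higher in every treated library, TKT by 0.17 (limma adjusted p = 0.00484) and ME1 by 0.19 (limma adjusted p = 0.0186) on the log2 scale. The rise of TKT was short of the threshold under median-of-ratios scaling (0.13, adjusted p = 0.0967) and with length and GC trends removed (0.07, adjusted p = 0.191). ME1 lost the call in 5 alternatives, among them median-of-ratios scaling (0.15, adjusted p = 0.0541). PGD, the dehydrogenase that makes NADPH in the oxidative branch, stood at 139, 131 and 126 TPM in vehicle and at 141, 142 and 141 TPM with PDBAG1. Its treated libraries were all above its controls, but vehicle replicate 1 lay close to them and the gene missed the threshold (log2 difference 0.10, limma adjusted p = 0.0854). Without that library the log2 fold change of PGD was 0.14 (adjusted p = 0.0283), and under quantile normalization it was 0.13 (adjusted p = 0.0184). TALDO1, the transaldolase of the non-oxidative branch, was 402 and 386 TPM (limma adjusted p = 0.208).

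Summing TPM within each role shows how the level of each system was made up. The superoxide dismutases and catalase together went from 665 ± 11.1 to 889 ± 12.5 TPM (SD, n = 3), with SOD2 the only one of the 3 called higher. The glutathione genes summed to 1867 and 1680 TPM, of which GPX1 and GPX4 made the most. The thioredoxin genes summed to 1893 and 1741 TPM and the peroxiredoxins to 2396 and 2258 TPM. The pentose phosphate and NADPH genes summed to 947 and 992 TPM, the NRF2 regulators to 230 and 244 TPM and the NRF2 target enzymes to 359 and 319 TPM, the last led by the fall of NQO1. All 34 together made 0.832% to 0.840% of a vehicle library and 0.807% to 0.818% of a PDBAG1 library.

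**Figure D3:**
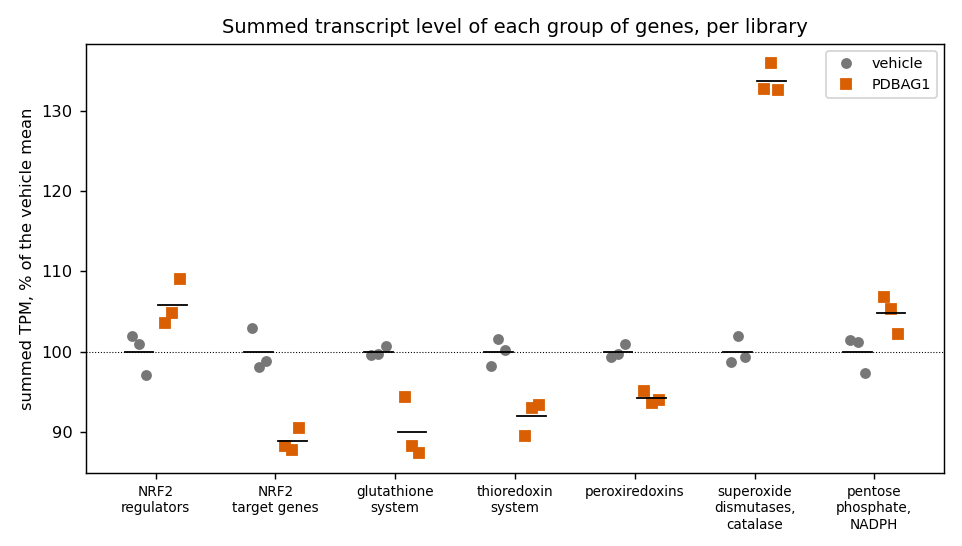
Summed TPM of each role is plotted for each library as a percentage of that role's vehicle mean (y axis, not from 0), with circles for vehicle, squares for PDBAG1 and a line at each group's mean (n = 3). The dismutase and catalase sum, 665 TPM in vehicle and 889 TPM with PDBAG1, lies far above the control level, and the NRF2 target enzyme, glutathione, thioredoxin and peroxiredoxin sums lie below it in all 3 treated libraries.

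The direction of the calls went with the level of the transcripts, as it did over all genes tested. Of the 19 genes with a vehicle mean of at least 100 TPM, 8 fell and 3 rose, and of the 15 below that level, 2 fell and 5 rose. Of the 1755 genes tested at or above 100 TPM, 37.8% were lower and 17.6% were higher. Over all 12582 genes these shares were 15.9% and 21.7%, so the tilt was not particular to the 34. Shares for genes under 100 TPM alone are not given. Of the 693 genes at that level with a transcript under 1500 bases, 45.9% were lower and 11.7% higher, with a median log2 fold change of -0.10. The median over the 34 genes was -0.02, and over all genes tested it was 0.03. With length and GC trends removed, TXN, PRDX1, PRDX4 and SOD1 were no longer called lower. KEAP1, NQO1, GCLM, GPX1, PRDX3 and PRDX6 still were, and GSS, GPX4, TXNRD1 and TXNRD2 were called lower only then or in other alternatives. The part of transcript level in these falls was not tested, and that of length was looked at only through this setting.

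**Figure D4:**
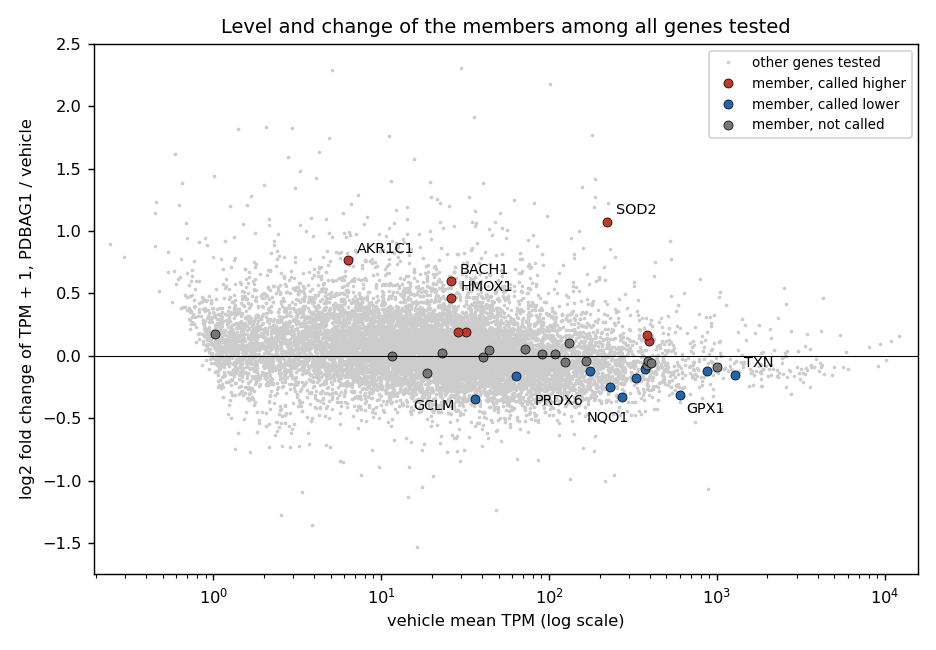
The log2 fold change of TPM + 1 (y axis) is plotted against the vehicle mean TPM (x axis, log scale) for all 12582 genes tested (light grey), with the 34 genes in red where called higher, blue where called lower and dark grey otherwise. The 8 blue points at 100 TPM or more sit at or below the centre of the abundant genes, and SOD2 stands apart at 222 TPM and a log2 change of 1.08.

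A wider list of 98 other genes of the same pathways also held genes called in both directions. Of these, 96 were in the libraries and 88 passed the filter. Of the 88, 24 (27.3%) were called higher, against 21.7% of all genes tested, and 14 (15.9%) were called lower, the same share as over all genes, with a median log2 fold change of 0.00403. The split was 23 and 24 under median-of-ratios scaling, 23 and 20 under quantile normalization and 25 and 24 with length and GC trends removed. The median log2 fold change of all genes was -0.00743 under median-of-ratios scaling, -0.0201 under quantile normalization and 0.0309 in the main fit. The shares of all genes called in these settings are not given, so these splits cannot be read as particular to the list. Only NOX5 and GLRX of the 88 changed by 1.5-fold or more. NOX5, a calcium-dependent NADPH oxidase that produces superoxide, rose from 2.37 to 4.58 TPM (log2 fold change 0.72, limma adjusted p = 0.000196). GLRX, the cytosolic glutaredoxin that removes glutathione from proteins, rose from 197 to 303 TPM (0.62, limma adjusted p = 8.96e-08), and SQSTM1, the autophagy receptor p62 that binds KEAP1, from 1036 to 1477 TPM (0.51, limma adjusted p = 5.15e-08). The 3 largest falls were those of CHAC2, which degrades glutathione (21.7 to 15.6 TPM, limma adjusted p = 0.000982), GPX7, a peroxidase of the endoplasmic reticulum (4.33 to 3.00 TPM, limma adjusted p = 0.0147), and GGCT, an enzyme of the gamma-glutamyl cycle (87.5 to 67.6 TPM, limma adjusted p = 0.000122). Among the 9 other NRF2 regulators tested, 4 were higher and none was lower by limma (SQSTM1, MAFK, NFE2L1 and MAFF). Over all genes tested these shares were 21.7% and 15.9%. The small MAF genes MAFK and MAFF, named after their values were seen, rose from 17.8 to 25.1 TPM (limma adjusted p = 0.000113) and from 51.0 to 60.0 TPM (limma adjusted p = 0.0019). MAFG rose among the 34, but its log2 fold change was 0.04 with length and GC trends removed. Values under the alternatives are not given for MAFK and MAFF. In the other roles, 5 rose and 3 fell of 18 target enzymes, 6 and 5 of 26 glutathione genes, 3 and 2 of 11 thioredoxin genes, 3 and 1 of 8 genes of superoxide and peroxide production or removal, and 3 and 3 of 16 pentose phosphate and NADPH genes.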

How the data were processed

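The authors prepared mRNA libraries and, per the methods, sequenced them on BGISEQ-500 and mapped reads with HISAT2 to GRCh38.p13, with FPKM as the stated unit. The labels mention Illumina protocols, and the submitters' processing notes name HISAT2 2.0.4, Bowtie2 2.2.5, RSEM 1.2.12 and GRCh38.p12. The deposited values are TPM per gene, to 2 decimals. Tests used limma 3.58.1 under R 4.3.3 (lmFit, eBayes with trend) on log2(TPM + 1), for genes with at least 1 TPM in 3 or more libraries, with Benjamini-Hochberg adjustment over all 12582. This scale understates the change of low genes. Simulated data were used to test the fit. Precision rests on the 3 libraries per group, grouped by the labels. Positions are from GENCODE v44 (GRCh38), matched for 17212 genes by Ensembl ID and for 58, SOD2 among them, by symbol.

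The members and gene lists were chosen with earlier results of these data known. All 34 members are named. Values per library are given for the 15 called genes with the largest change and for NFE2L2, KEAP1, SOD1 and SOD2, and of the wider list the 3 largest called rises and falls are named. Those of PGD, which was not called, are given as well, outside that rule. No p is given for sums, shares or ratios over several members, including the SOD2 and mitochondrial shares, for which an exact permutation test was planned that cannot give less than 0.1 with 3 against 3. The leukocyte marker CD3E and the fibroblast marker DCN were not listed under those symbols in the libraries, so the marker sums leave them out. Alternatives were no filter, 1 TPM in every library, a pseudocount of 0.1, other scalings, the replicate block, eBayes without trend, leaving out each library, and, added after the data were seen, removal of length and GC trends. Also chosen after the data were seen were the ratios of BACH1 to NFE2L2 and of TXNRD1 to TXN and the summed TPM. The same holds for the comparison with genes of at least 100 TPM and under 1500 bases.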

Additional observations from a re-analysis of the deposited data

How the results depend on the processing

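Over the 34 genes and 14 alternatives, 407 values kept their direction and side of the threshold, 40 were past it no longer, 9 passed it newly and 16 changed sign, all 16 in genes without a call. AKR1B10 had no value in 4 of them because it failed the filter. Under median-of-ratios scaling 5 genes were higher, NFE2L2 had a log2 fold change of -0.0235, OSGIN1 of -0.036, GCLC of -0.0176 and SRXN1 of -0.0235. Under quantile normalization OSGIN1 was -0.071 and GCLC -0.0225, and with length and GC trends removed, a setting chosen after seeing the data, OSGIN1 was -0.109 and SRXN1 -0.0143. With eBayes without trend 6 genes were lower. Leaving out each library in turn left 6 to 10 of the 34 lower and 6 to 15 of the wider list lower, and gave log2 fold changes from -0.0567 to 0.0542 for AIFM2, from -0.015 to 0.0357 for NFE2L2, from -0.0405 to 0.0378 for OSGIN1 and from -0.0389 to 0.0833 for GCLC. The genes lower on the wider list numbered 9 with no filter, 24 under median-of-ratios scaling, 9 with the replicate block and 24 with length and GC trends removed, against 14. The causes were not tested. Shares of all genes called in each direction under these alternatives are not given, so the counts have no background beside them.

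With the replicate number as a block, 6 of the 34 genes were higher and 7 lower, 13 of them shared with the fit without it (KEAP1, PRDX4, PRDX5, SOD1 and ME1 were not called), and 3951 genes were called in all against 4736. Deviations of same-numbered libraries correlated at -0.207, 0.0118 and -0.0785, so the numbers were not taken to pair the libraries. TPM keeps no depth, so no counting error is given, and count-based tests were not run.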
